A study of Mus musculus with 230 samples.

Results

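Intact sensory neurons of mice aged 12 months were compared with those of mice aged 8 months, with 3 low-input RNA libraries in each group. These 6 libraries were chosen by their age and condition labels alone, out of 18 low-input RNA libraries and 230 samples in the series. The mice were labelled as a cross of C57BL/6 X CAST/Ei, and the series as a whole followed sciatic nerve injury at ages from 1 to 12 months. Neurons of the L4 and L5 dorsal root ganglia (DRG), which hold the cell bodies of the sciatic nerve's sensory axons, were freed by enzymes and picked by hand. The protocol text, shared by the single-cell and low-input libraries, describes RNA from the cytoplasm amplified by SMART-seq2 after the nucleus was taken out. The labels give neither the number of neurons in a library nor which libraries came from which animal, so p-values measure the spread between libraries, which may be technical. The gene tests estimate that spread over all 18 low-input libraries, not over the 6 compared alone. The labels also do not say whether intact and injured libraries came from the same animals.

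DRG neurons carry touch, limb position, temperature, itch and pain to the spinal cord. Small nociceptors fire through tetrodotoxin-resistant sodium channels and use either neuropeptides or growth-factor signalling through Ret, while large neurons with myelinated axons are rich in heavy neurofilament. Ageing of the peripheral nervous system is known for slower conduction, altered pain thresholds and weaker regrowth after injury.

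The libraries differed in depth. Counts on autosomal genes were 4436774, 449354 and 1669347 in 12-month replicates 1, 2 and 3, and 3822964, 3789199 and 4361171 in the 8-month replicates; values below follow this order of replicates. A single count was worth 4.49 CPM, counts scaled to library size, in 12-month replicate 2 and 0.202 to 0.541 CPM in the others. CT010467.1, a locus that resembles ribosomal RNA, took 64.2%, 93.8% and 80.9% of endogenous counts at 12 months and 65.7%, 68.2% and 67.0% at 8 months, and was left out before scaling. Mitochondrially encoded genes took 3.55%, 40.5% and 3.0% of the remaining counts at 12 months against 1.32%, 1.19% and 1.23% at 8 months, so the groups did not overlap (exact two-sided permutation test, p = 0.1, the smallest that 3 against 3 can give). In 12-month replicate 2, 54.1% of autosomal counts fell on Lars2, which encodes the mitochondrial leucyl-tRNA synthetase, against 0.649% to 3.46% in the other 5 libraries. Its Spearman correlation with the other 12-month libraries over 18888 genes was 0.753 and 0.718, below the 0.882 of the other pair. There were 253, 149 and 313 counts on 4 Y-linked genes in the 8-month libraries and 0 in each 12-month library. Xist had 10, 15 and 0 counts at 12 months and 0 in each 8-month library, so 12-month replicate 3 had counts of neither, and age and sex cannot be told apart. The plot of library measures shows how far 12-month replicate 2 stood from the rest, and results are given with and without it.

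**Figure D1:**
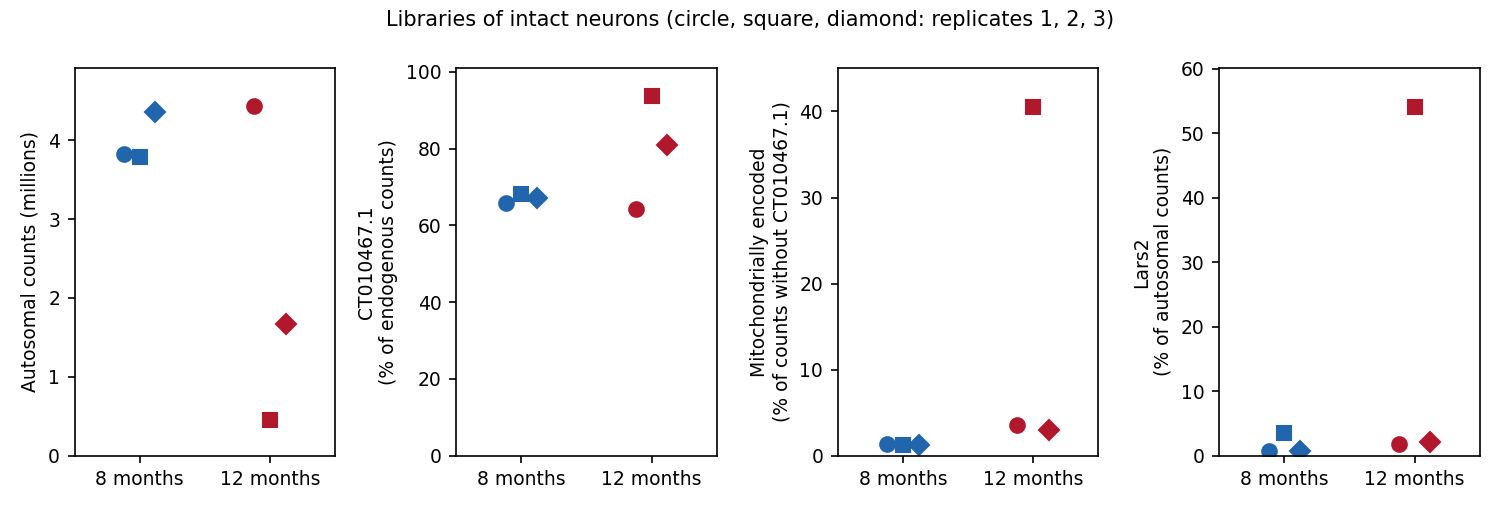
Autosomal counts and the percentages of counts on CT010467.1, on mitochondrially encoded genes and on Lars2, for each of the 3 libraries at 8 months (blue) and at 12 months (red). The second 12-month library (square) holds 449354 autosomal counts and has 54.1% of them on Lars2.

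Of 13642 autosomal genes tested, 361 rose (2.65%) and 523 fell (3.83%) from 8 to 12 months by edgeR's quasi-likelihood test at an adjusted p below 0.05. The CPM of the 3 and 3 libraries did not overlap for 725 genes that were higher (5.31%) and 1240 that were lower at 12 months (9.09%), and 264 of the called higher genes and 493 of the called lower genes were among them. Without 12-month replicate 2, 981 of 14347 genes rose (6.84%) and 1041 fell (7.26%), and 326 and 495 of the first calls were made again. Calls held with each of the 6 libraries left out in turn for 83 higher and 126 lower genes. The plot of all genes shows that the calls reach from weakly to strongly expressed genes and that the genes without a count in one group lie along its outer edges.

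These calls rest on a spread shared with the other 4 groups of the 18 libraries: when the 6 libraries were fitted alone, edgeR made 0 calls (870 genes had a p below 0.05 before adjustment), limma-voom with library quality weights also called 0, and DESeq2 on all 18 called 2171. The shared spread was smaller than that of the libraries compared. edgeR's common coefficient of variation between replicates was 0.543 over the 18 libraries, 0.671 over the 9 intact ones and 0.729 over the 6. These fits had 12, 6 and 4 residual degrees of freedom. Scaling sets the balance of directions. The share of called genes that were higher was 40.8% with TMM, 45.7% with DESeq2's size factors in edgeR, 51.8% with upper quartiles, 21.9% with library totals and 2.84% with the ERCC spike-ins, under which the median change of all genes moved from -0.03 to -2.12 on the log2 scale. A higher level below therefore means higher relative to the other autosomal transcripts of the same library. In pooled neurons, fewer cells of a type and less RNA per cell cannot be told apart.

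Transcript length moved with the direction of change. The genes called higher had a median summed exon length of 3189 bp and the genes called lower 5347 bp, against 4230 bp for all genes tested. In the quintile of genes with the shortest exons, up to 2198 bp, the median log2 change was 0.31, with 4.43% called higher and 1.39% called lower. In the quintile with the longest exons, from 7409 bp, it was -0.16, with 1.65% called higher and 5.09% called lower. Without 12-month replicate 2 the medians of these quintiles were 0.47 and -0.46, and in injured neurons the same contrast gave -0.11 and 0.09. The part of length or RNA integrity in the results below was not tested.

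The largest increases were in genes without a count in any 8-month library, among them Baiap2l1, Tmem108 and Hcrtr2. Baiap2l1 (chr5:144264526-144358112, mm10), which encodes an adaptor that bends membranes and binds actin, stood at 88.5, 67.4 and 40.6 CPM at 12 months, at least 309-fold higher against a floor of 3 counts over the 8-month group (adjusted p = 0.00758). Tmem108, also called retrolinkin and known in axonal transport of TrkB, stood at 22.6, 40.5 and 24.4 CPM, and Hcrtr2, the orexin receptor type 2, at 23.3, 45 and 11.9 CPM, at least 98.3-fold and 86.5-fold higher. All 3 genes were detected in intact neurons at 1 month, at means of 58.8, 36.5 and 14.6 CPM.

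Other increases were in genes that had counts in the 8-month group. Fam57b, a ceramide synthase-related gene, stood at 200.2, 197.8 and 149 CPM at 12 months, compared with 34.7, 42.3 and 35.6 CPM at 8 months. Its groups lay far apart, with a log2 change of 2.28 (SE 0.35, adjusted p = 0.00411). Dbi, the acyl-CoA binding protein whose peptides act on GABA-A receptors, stood at 143, 229 and 118 CPM against 29.6, 38.4 and 31.6 CPM, a log2 change of 2.27 (SE 0.33, adjusted p = 0.00339). Etfrf1, a regulator of the electron transfer flavoprotein, rose by 2.48 (SE 0.33, adjusted p = 0.00201), from 14.9, 16.9 and 18.6 CPM to 82.2, 85.4 and 112 CPM. Tspan8, a cell-surface tetraspanin, was at 0, 4.42 and 1.42 CPM at 8 months, and 164, 89.9 and 170 CPM at 12 months, while its injured groups were alike at means of 78.1 and 71.8 CPM. Each of these 4 genes kept its call with any of the 6 libraries left out.

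Of the genes that fell, Gmip (chr8:69808679-69821870), a GTPase-activating protein, had no count at 12 months and 7.46, 19.9 and 12.6 CPM at 8 months, at least 29.1-fold lower (adjusted p = 0.00411). Ssh3, a cofilin phosphatase that acts on actin turnover, was likewise at 0 against 10, 24.3 and 9.51 CPM, at least 31.1-fold lower. Itga11, Ncam2, Adcy8, Gpr179, Syn3, Sptbn5 and Tmprss9 were also at 0 in all 3 libraries at 12 months, but each lost its call when 1 or more of the 6 libraries was left out, 12-month replicate 1 in every case (adjusted p 0.0534 to 0.134). Slc44a2, a choline transporter, stood at 30, 27 and 25.4 CPM at 12 months, compared with 111, 200 and 132 CPM at 8 months. It fell by 2.42 on the log2 scale (SE 0.32, adjusted p = 0.00201), and its 2 groups were apart by more than the spread within either. Adgrg1, an adhesion G protein-coupled receptor, fell by 2.52 (SE 0.35, adjusted p = 0.00207), and Fbxw9, an F-box protein of ubiquitin ligases, fell by 4.32 (SE 0.60, adjusted p = 0.00207).

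Voltage-gated sodium channels drive the action potential, and 2 of the 14 tested members fell (14.3%) and 0 rose, where 3.83% of all genes fell and 2.65% rose. The median log2 change was -1.18 (-0.93 with members lacking counts set at their bound), against -0.03 for all genes. Scn10a (chr9:119608456-119719322), the tetrodotoxin-resistant channel of nociceptors, stood at 242, 98.9 and 62.8 CPM at 12 months, compared with 1805, 2730 and 1822 CPM at 8 months. The highest library at 12 months lay far below the lowest at 8 months. Its log2 change was -3.95 (SE 0.67, adjusted p = 0.00637), it was -3.78 without 12-month replicate 2 (adjusted p = 0.0103), and the mean at 1 month was 1071 CPM. The beta subunit gene Scn3b fell from 119, 80.2 and 59.3 CPM to 11.1, 4.50 and 7.58 CPM (log2 change -3.29, SE 0.75, adjusted p = 0.0191), and missed the threshold without 12-month replicate 3 (adjusted p = 0.0583). Scn9a, another nociceptor channel gene, stood at 207, 692 and 87.7 CPM against 544, 691 and 568 CPM and did not pass (adjusted p = 0.272), but fell without 12-month replicate 2 (log2 change -2.01, adjusted p = 0.00477). Scn1a, a channel of large neurons, went the other way without passing, at 154, 315 and 92.0 CPM against 43.7, 20.2 and 7.49 CPM (adjusted p = 0.0953).

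Potassium channel genes set the resting potential and firing rate: of 64 tested, 2 rose (3.12%) and 3 fell (4.69%), shares near those of all genes (2.65% and 3.83%), with a median of -0.69. Kcna6, a delayed rectifier subunit, stood at 12.2, 4.50 and 8.66 CPM at 12 months, compared with 166, 129 and 72.7 CPM at 8 months, with no overlap (log2 change -3.65, SE 0.57, adjusted p = 0.00411). Kcnc4, a fast delayed rectifier, and Kcnk12, a leak-type subunit, fell by 3.27 and 3.73 on the log2 scale. Kcnq3, a subunit of the M-current that damps firing, was at 57.4, 76.4 and 43.3 CPM at 12 months, compared with 0, 10.8 and 7.49 CPM at 8 months (log2 change 3.23, adjusted p = 0.0303), and Kcnh7 rose by 1.25 (adjusted p = 0.0349, and 0.0528 without 12-month replicate 2). Only the call of Kcna6 among these 5 held with every library left out: Kcnc4 missed it without 8-month replicate 2 (adjusted p = 0.0588), Kcnq3 without 12-month replicate 1 (0.0553), Kcnk12 without 3 libraries (12-month replicates 1 and 3 and 8-month replicate 2, 0.0629 to 0.106) and Kcnh7 without 4 (12-month replicate 2 and each 8-month library, up to 0.0900).

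Among 19 calcium channel genes, 1 rose and 2 fell (median -0.61). Cacna1c (chr6:118587240-119196418), the pore of an L-type channel, stood at 10.7, 4.50 and 0.541 CPM at 12 months, compared with 70.7, 106 and 63.4 CPM at 8 months. The ranges did not touch, and the log2 change was -3.73 (SE 0.71, adjusted p = 0.00957). Cacna2d1, the auxiliary subunit that gabapentin binds and a known nerve injury gene, fell from 109, 143 and 116 CPM to 33.7, 40.5 and 31.4 CPM (log2 change -1.84, adjusted p = 0.0108). Its relative Cacna2d3 was higher, at 77.7, 27 and 22.2 CPM against 0.257, 11.9 and 4.05 CPM (log2 change 3.05, adjusted p = 0.0308), but not without 12-month replicate 1 (adjusted p = 0.143) or 8-month replicate 3 (0.0606).

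Of 22 TRP, Piezo and acid-sensing channel genes, which detect heat, touch and acid, 2 fell (9.09%, against 3.83% of all genes) and 0 rose. The median was -1.13 and 20 had a negative log2 change, where 47.6% of all genes had a positive one. Trpm3, a heat-activated channel of sensory neurons, was at 3.92, 4.50 and 10.3 CPM against 50.9, 39.5 and 58.3 CPM, lower in each 12-month library than in any at 8 months (log2 change -2.92, SE 0.60, adjusted p = 0.0128). Trpm4, a calcium-activated cation channel, fell by 1.63 (adjusted p = 0.0249), a call that was lost without 12-month replicate 1 or 3 or 8-month replicate 2 (0.0678 to 0.0762). The capsaicin receptor Trpv1 was low and uneven, at 19.1, 0 and 0 CPM against 4.89, 19.9 and 3.64 CPM, and the cold receptor Trpm8 had no count at 12 months, against 125, 3.04 and 0 CPM at 8 months. Neither passed (adjusted p = 0.980 and 0.0821).

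Receptor subunits for transmitters moved both ways: 2 of 33 GABA, glycine and glutamate receptor genes rose and 2 fell (median 0.16). Each direction held 6.06% of the list, against 2.65% of all genes higher and 3.83% lower. Gabra5 and Gabrb2 encode GABA-A receptor subunits. Gabra5 was at 16.3, 4.50 and 9.74 CPM at 12 months, compared with 0.514, 0.830 and 0.202 CPM at 8 months (log2 change 4.48, SE 0.77, adjusted p = 0.00656). Gabrb2 was at 22, 18 and 10.8 CPM against 0, 0.830 and 0 CPM, a ratio of 77.8 with an exact 95% counting interval of 26 to 382 (adjusted p = 0.0216). The metabotropic glutamate receptor gene Grm7 stood at 13.1, 18 and 22.7 CPM against 129, 141 and 104 CPM. Its values were close together within each age and it fell by 2.81 (SE 0.43, adjusted p = 0.00411). Grik4, a kainate receptor subunit, fell by 2.40 (SE 0.37, adjusted p = 0.00411), and all 4 calls held with each library left out.

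**Figure D2:**
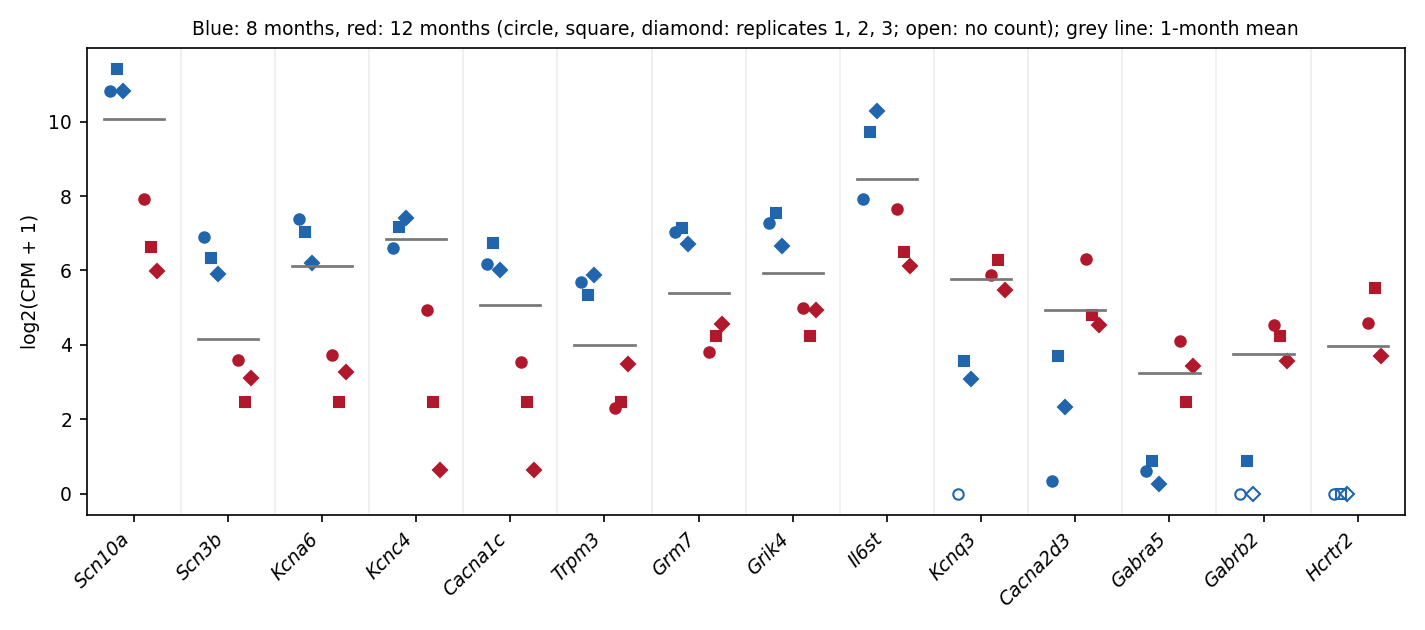
Log2(CPM + 1) of 14 channel and receptor genes in each intact library at 8 months (blue) and 12 months (red), with the 1-month mean as a grey line; open symbols are libraries without a count. All 14 are called genes picked with values that do not overlap between the ages, for example Scn10a at 62.8 to 242 CPM against 1805 to 2730 CPM. Genes that overlap, such as Scn9a, Trpv1 and Trpm8, are not shown. Of 14 sodium channel genes tested 2 were called and did not overlap, and of 64 potassium channel genes 5.

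Receptors for growth factors, peptides and inflammatory mediators gave few calls. Of 20 neurotrophin and GDNF-family receptor genes 0 rose and 2 fell (10%, against 3.83% of all genes), with a median of 0.03. Il6st, which encodes the shared signalling receptor gp130 of the interleukin-6 family, was at 201, 89.9 and 68.2 CPM at 12 months, compared with 241, 850 and 1248 CPM at 8 months, a log2 change of -2.68 (SE 0.57, adjusted p = 0.0143). Stat3, the transcription factor downstream of gp130 and a list member among nerve injury genes, fell with it, from 398, 604 and 537 CPM to 185, 144 and 213 CPM (log2 change -1.49, SE 0.29, adjusted p = 0.0108). Among 35 neuropeptide, opioid and prostanoid receptor genes 1 rose (2.86%, against 2.65% of all genes) and 2 fell (5.71%, against 3.83%). The median was -0.18, or 0.00 with members lacking counts at their bound. Ptger3, a prostaglandin E2 receptor gene, fell from 52.2, 136 and 103 CPM to 6.31, 0 and 15.7 CPM (log2 change -3.41, SE 0.70, adjusted p = 0.0128). The cannabinoid receptor gene Cnr1 was at 21.5, 8.99 and 0 CPM against 0 in each 8-month library, at least 62.8-fold higher, with an adjusted p of 0.0317 that rose to 0.341 without 12-month replicate 1 and to between 0.0516 and 0.0829 without any 8-month library.

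Genes that nerve injury switches on gave no call in the higher direction. Of 27 nerve injury genes, 0 rose and 2, Stat3 and Cacna2d1, fell (7.41%, against 3.83% of all genes). The median was -0.99, or 0.00 with members lacking counts at their bound. Atf3, the injury-induced transcription factor, was at 6.74, 0 and 14.1 CPM against 4.89, 4.98 and 44.3 CPM (adjusted p = 0.484), and Sprr1a, a gene of regrowing axons, was at most at 1.62 CPM in the 6 libraries. In injured neurons at 8 months Atf3 had a mean of 627 CPM and Sprr1a one of 934 CPM. Among 19 immediate early genes only Junb was called, with a log2 change of -2.83 (adjusted p = 0.0148, and 0.0584 without 8-month replicate 2). Junb made up 5.26% of the list, against 3.83% of all genes lower. The growth-associated gene Gap43 was at 224, 36 and 60.1 CPM against 1501, 387 and 6.68 CPM and did not pass (adjusted p = 0.218).

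Markers of neuron types varied widely among libraries of the same age. All 16 general sensory neuron genes had counts in each of the 6 libraries, with summed levels of 27843, 43144 and 25867 CPM at 12 months and 29542, 29344 and 21465 CPM at 8 months. Only 1 of them was called, Avil, an actin regulator of somatosensory neurons, which fell from 1234, 1588 and 1149 CPM to 372, 360 and 618 CPM (log2 change -1.55, SE 0.30, adjusted p = 0.00985). Non-peptidergic nociceptor markers summed to 1273, 1209 and 2046 CPM at 12 months and to 303, 9846 and 6509 CPM at 8 months, and Mrgprd, their defining receptor, was at 109, 0 and 388 CPM against 0, 1661 and 748 CPM. Peptidergic markers summed to 1690, 620 and 1632 CPM against 10599, 4698 and 1552 CPM, with Calca, the gene of the peptide CGRP, at 6521 CPM in 8-month replicate 1. Within the 8-month group, replicate 1 had the highest peptidergic sum and the lowest non-peptidergic one.

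Large-fibre markers summed to 6341, 20895 and 1545 CPM at 12 months and to 2678, 2285 and 2913 CPM at 8 months, where Nefh, heavy neurofilament, gave 19066 CPM in 12-month replicate 2. Of 16 large-fibre, 21 non-peptidergic, 19 peptidergic and 8 C-fibre mechanoreceptor markers tested, 1 passed. Their medians were 0.85, -1.56, -1.88 and -0.64. The first was -0.48 with spike-in scaling, where the median of all genes was -2.12. The part of neuron type in the channel and receptor results was not tested.

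Markers of other cells were low and uneven. Satellite glia markers summed to 421 to 2198 CPM at 12 months and 579 to 1946 CPM at 8 months, Schwann cell markers to 533 to 1038 against 1108 to 2278 CPM, and fibroblast and vascular markers to 8.12 to 283 against 33.7 to 113 CPM. 0 of 15, 10 and 11 tested members of these lists passed. Apoe, abundant in satellite glia, was at 3.92, 1335 and 14.1 CPM against 59.4, 1215 and 99.6 CPM, so it was high in replicate 2 of both ages. Immune markers summed to 73.5, 89.9 and 28.7 CPM against 3.34, 4.15 and 10.1 CPM. Of 21 immune genes 5 could be tested and 1 rose, Ighm, the immunoglobulin heavy chain, at 58.7, 8.99 and 27.6 CPM against 0 in all 8-month libraries. All 5 tested members had a positive log2 change, as had 47.6% of all genes, with a median of 3.09. Without 12-month replicate 2 the median was 2.155. Of the 21 genes, 13 had no count at 12 months and 11 none at 8 months. Ptprc, Aif1, C1qa and Cx3cr1, which define leukocytes and macrophages, were among those without a count at 12 months. The macrophage markers Csf1r and Lyz2 had counts there, Csf1r at 0, 18 and 0 CPM against 0, 0 and 0.405 CPM and Lyz2 at 9.79, 62.9 and 0 CPM against 0, 1.38 and 6.68 CPM, and neither passed. Csf1r had 4 counts at 12 months and 2 at 8 months, and its log2 change went from 3.84 to -2.95 without 12-month replicate 2.

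Of 45 synaptic release genes 5 fell (11.1%, against 3.83% of all genes) and 0 rose (median -0.34). Without 12-month replicate 2, 9 fell, in a fit that called 7.26% of all genes lower. Unc13a, which primes synaptic vesicles, stood at 52.4, 98.9 and 30.9 CPM at 12 months, compared with 189, 306 and 120 CPM at 8 months (log2 change -1.86, SE 0.43, adjusted p = 0.0216). Stx1a, a plasma membrane SNARE, was at 15, 8.99 and 37.4 CPM against 115, 63.9 and 83.0 CPM (log2 change -1.97, adjusted p = 0.0248), and Erc1, a scaffold of the active zone, fell by 1.41. The synapsins Syn2 and Syn3, which tether vesicles, were the other members called. None of the 5 calls held with every library left out, the largest adjusted p being 0.0781 for Unc13a without 8-month replicate 2, 0.0762 for Erc1 without the same library, 0.0757 for Stx1a without 12-month replicate 1, 0.1 for Syn2 without 8-month replicate 1 and 0.0888 for Syn3 without 12-month replicate 1.

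Axon guidance genes, which steer growing axons, had 7 of 52 tested members lower (13.5%, against 3.83% of all genes) and 2 higher (3.85%, against 2.65%). The median was -1.17 (-0.92 with members lacking counts at their bound). Robo2 (chr16:73892306-74411825), a receptor for Slit proteins, was at 119, 117 and 93.7 CPM at 12 months, compared with 397, 293 and 275 CPM at 8 months. The spread within each age was small, and it fell by 1.56 (SE 0.26, adjusted p = 0.00637). Its ligand gene Slit1 fell from 419, 422 and 159 CPM to 46.3, 85.4 and 11.4 CPM (log2 change -2.96, SE 0.54, adjusted p = 0.00833). The calls of Robo2 and Slit1 held with each library left out. Ephrin receptors Ephb6 and Epha5 and semaphorins Sema6d, Sema3b and Sema4d were the other 5 that fell, by 1.87 (Sema4d) to 4.65 (Epha5), and each lost its call without 12-month replicate 3 and at least 2 other libraries (adjusted p 0.0522 to 0.135). Ntng1, netrin G1, and Sema3e had 3 and 1 counts in the whole 8-month group and stood at 67.9, 139 and 19.5 CPM and at 11.8, 53.9 and 22.7 CPM at 12 months. Both rose, with ratios of 236 (95% counting interval 80.1 to 1149) and 202 (35.4 to 8036), and both lost the call without 8-month replicate 2 (adjusted p = 0.0566 and 0.0913), as Sema3e also did without 3 other libraries (0.0566 to 0.0793).

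Motor proteins carry cargo along axons. Of 45 kinesin, dynein and dynactin genes 2 fell and 0 rose (median -0.42), and the 4.44% that fell lies near the 3.83% of all genes. Kif13b, a kinesin with endosomal cargo, was at 4.35, 22.5 and 3.25 CPM against 31.6, 62.2 and 85.8 CPM (log2 change -3.31, SE 0.67, adjusted p = 0.0123), and Kif5a, which carries neurofilaments, was at 615, 854 and 438 CPM against 1190, 1697 and 1218 CPM (log2 change -1.11, adjusted p = 0.0232, and 0.0609 without 12-month replicate 3 and 0.0796 without 8-month replicate 2). Of 30 tubulin and intermediate filament genes only Tubb2b passed (3.33%), falling by 2.75 (adjusted p = 0.0179, and 0.0661 without 8-month replicate 2). Integrins and laminins had 1 call among 27, Itga11, which fell (3.70%). Both shares lie near the 3.83% of all genes.

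Oxidative phosphorylation makes ATP in mitochondria, and most of its subunits are encoded in the nucleus. Of 75 nuclear genes tested, 15 rose (20%, against 2.65% of all genes) and 0 fell. A positive log2 change was seen in 72, and in 47.6% of all genes. The median was 0.89 against -0.03 for all genes, or -0.64 with spike-in scaling, where the median of all genes was -2.12. Without 12-month replicate 2, 55 rose (73.3%) and 0 fell, in a fit that called 6.84% of all genes higher and 7.26% lower. Compared with the mean of the 8-month libraries on the log2(CPM + 1) scale, the median member was 1.39 higher in 12-month replicate 1, 1.0 higher in replicate 3 and 0.67 lower in replicate 2 (-0.67), where 15 of 75 lay above every 8-month library, against 72 and 68 in replicates 1 and 3. For all genes tested these shares were 30.5%, 24.2% and 27.1% in replicates 1, 2 and 3. Library totals as scaling left 5 of the 15 calls.

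Of the 15 genes called, 12 had CPM that did not overlap between the ages, as had 264 of all 361 genes called higher; over all genes tested 5.31% did not overlap in this direction. Uqcr11, a subunit of complex III, stood at 590, 351 and 437 CPM at 12 months, compared with 198, 129 and 234 CPM at 8 months (log2 change 1.3, SE 0.27, adjusted p = 0.0125). Ndufa2, of complex I, was at 297, 521 and 282 CPM against 131, 133 and 148 CPM (log2 change 1.40, SE 0.26, adjusted p = 0.00921). Ndufc2, of complex I too, rose by 1.73 (adjusted p = 0.0123), and the ATP synthase subunits Atp5k and Atp5e by 1.58 and 2.02. Calls of these 5 genes held with each library left out; the other 10 each lost theirs without at least 1 library. The members' median exon length was 1701 bp, within the shortest quintile, whose own median change was 0.31, and the mitochondrially encoded share was higher too (3.55%, 40.5% and 3.0% against 1.32%, 1.19% and 1.23%); the part of either was not tested.

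Promoters of oxidative phosphorylation genes are known for sites of nuclear respiratory factor 1, whose palindrome was searched as GCGCA, any base, GCGC on both strands in the 250 bases before each gene's start (RefSeq, GRCm38.p6), a search chosen after the values were seen. It occurred in 13 of 61 genes of the list with a promoter in the table (21.3%), in 3 of 11 of those that rose (27.3%), and in 913 of 10060 genes tested (9.08%). The 3 that rose and held it are shown, on the gene's strand, the minus strand in each case, with the match in capitals, to let the shared letters be seen; a match describes the letters and is not a measured site. They lie at chr5:108434400-108434519 for Atp5k, which makes a subunit of ATP synthase, at chr5:115349056-115349175 for Cox6a1, of cytochrome c oxidase, and at chr13:73328483-73328602 for Ndufs6, of complex I.
Atp5k: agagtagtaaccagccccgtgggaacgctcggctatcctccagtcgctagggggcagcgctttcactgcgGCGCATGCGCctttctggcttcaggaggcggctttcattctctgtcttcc
Cox6a1: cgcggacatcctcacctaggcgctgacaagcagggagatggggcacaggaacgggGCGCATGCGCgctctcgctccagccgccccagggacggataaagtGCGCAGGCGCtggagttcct
Ndufs6: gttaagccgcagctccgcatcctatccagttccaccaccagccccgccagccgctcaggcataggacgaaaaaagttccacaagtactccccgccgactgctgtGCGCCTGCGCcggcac
Atp5k was at 219, 184 and 152 CPM at 12 months, compared with 48.9, 42.6 and 94.5 CPM at 8 months (log2 change 1.58, SE 0.30, adjusted p = 0.0102), Ndufs6 at 245, 202 and 187 CPM against 95.9, 65.5 and 115 CPM (log2 change 1.20, SE 0.27, adjusted p = 0.0183), and Cox6a1 at 727, 440 and 528 CPM against 295, 295 and 356 CPM (log2 change 0.85, SE 0.25, adjusted p = 0.0486). In each of the 3 genes every 12-month library lay above every 8-month library.

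Cytosolic ribosomal protein genes, which build the ribosome, followed the same course: 14 of 81 rose (17.3%, against 2.65% of all genes) and 0 fell. The median was 0.74, or -1.18 with spike-in scaling, where the median of all genes was -2.12. Without 12-month replicate 2, 51 rose (63.0%, against 6.84% of all genes) and 0 fell. Library totals as scaling left 1 call. The median member was 0.88 and 1.01 above the 8-month mean in 12-month replicates 1 and 3 and 0.41 below it in replicate 2 (-0.41). Rpl29 was at 149, 80.9 and 186 CPM against 29.6, 74.4 and 30.6 CPM (log2 change 1.66, SE 0.35, adjusted p = 0.0147), and Rps14 at 336, 288 and 277 CPM against 137, 109 and 152 CPM (log2 change 1.18, SE 0.25, adjusted p = 0.0155). Of the 14 calls only that of Rpl29 held with each library left out. Ribosomal protein genes have many processed pseudogenes that share their sequence, so their counts are uncertain, and their median exon length was 1739 bp.

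Proteasome subunits, of the complex that degrades tagged proteins, had 2 of 40 members higher, Psmd5 and Psma7 (5%, against 2.65% of all genes), and 0 lower. The median was 0.61, or -1.14 with spike-in scaling, where the median of all genes was -2.12. Without 12-month replicate 2, 20 rose (50%, against 6.84% of all genes) and 0 fell. Psmd5, an assembly chaperone, was at 149, 80.9 and 198 CPM against 63.0, 60.0 and 59.5 CPM (log2 change 1.26, adjusted p = 0.0312), a call lost without any 1 of the other 5 libraries (up to 0.105). Psma7, a subunit of the core particle, was at 638, 387 and 634 CPM against 272, 285 and 342 CPM (log2 change 0.89, adjusted p = 0.0453), and lost its call without 12-month replicate 1 or 3 or 8-month replicate 1 or 2 (0.102 to 0.116). Library totals as scaling left 0 proteasome calls. The plot of 4 lists by library shows replicate 2 below the 8-month mean for oxidative phosphorylation, ribosomal protein and proteasome genes, while replicates 1 and 3 lie above it.

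**Figure D3:**
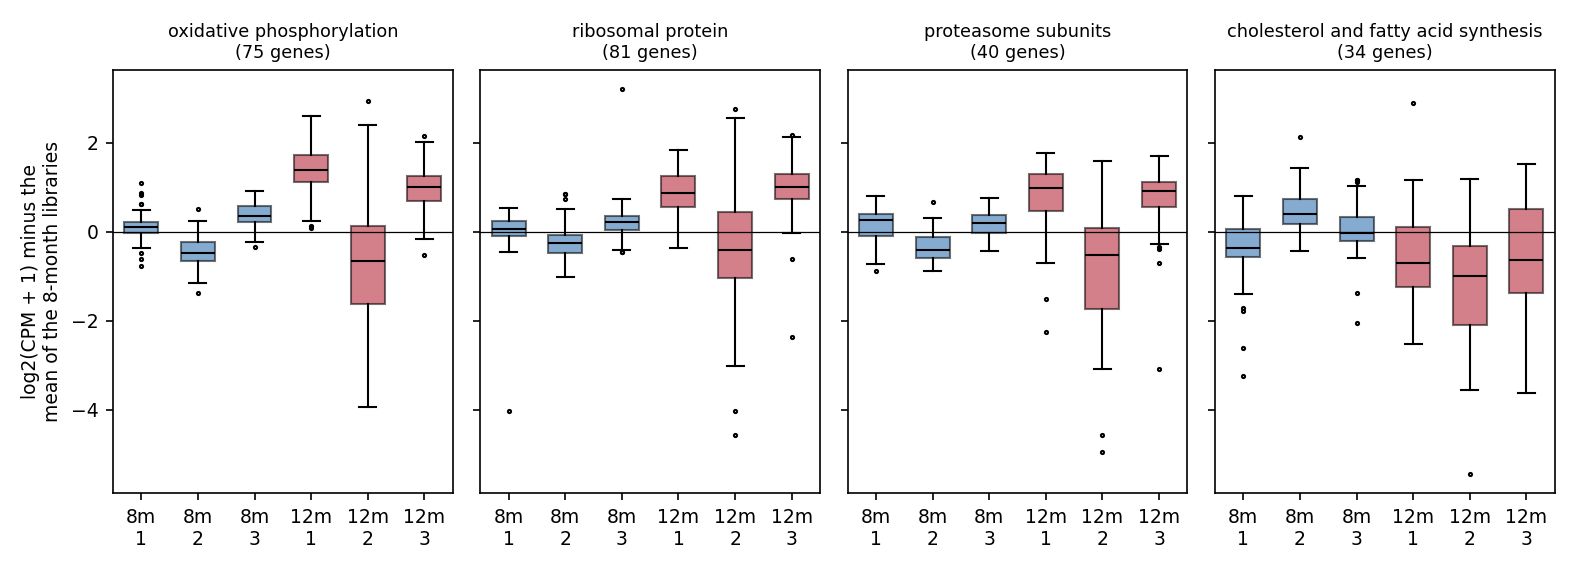
Log2(CPM + 1) of the tested members of 4 lists in each intact library, minus the member's mean over the 8-month libraries (boxes: quartiles and median; whiskers: the farthest members not drawn as points). Oxidative phosphorylation medians are 1.39, -0.67 and 1.0 in the 12-month libraries, and those of cholesterol and fatty acid synthesis are -0.70, -1.0 and -0.65. With spike-in scaling, where the median of all genes is -2.12, all 4 lists' medians are below 0.

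Of 34 cholesterol and fatty acid synthesis genes, which supply membrane lipids, 8 fell (23.5%, against 3.83% of all genes), 0 rose and 26 did not pass. Upper-quartile scaling gave 7 lower and 1 higher. The median was -0.63 with 27 members negative, where 47.6% of all genes were positive. Without 12-month replicate 2, 11 fell and 0 rose, in a fit that called 7.26% of all genes lower. The median member lay 0.70, 1.0 and 0.65 below the 8-month mean in the 3 libraries at 12 months (-0.70, -1.0 and -0.65). Acly, which makes cytosolic acetyl-CoA, was at 254, 121 and 180 CPM against 436, 689 and 730 CPM (log2 change -1.72, SE 0.35, adjusted p = 0.0128), and no library of one age reached those of the other. Srebf1, a transcription factor of lipid synthesis, fell by 1.75 from 80.8, 75.0 and 74.9 CPM at 8 months. Scd2, Acaca, Lss and Sqle fell, with log2 changes of -1.23, -1.05, -1.25 and -1.07.

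The call of Acly held with each library left out. Srebf1 missed the threshold without 12-month replicate 3 (adjusted p = 0.0583), and Srebf1 and Scd2 without 8-month replicate 2 (0.0521 and 0.0625). Acaca, Lss and Sqle also missed it without 8-month replicate 2 (0.0731, 0.084 and 0.164) and without 1 to 3 other libraries. With spike-in scaling 4 of the list fell and 0 rose, in a fit that called 786 of 14783 genes lower and 23 higher. Satellite glia and Schwann cells also make cholesterol, and 0 of their markers passed; the part of these cells was not tested.

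Lysosome and autophagy genes had 6 of 42 members lower (14.3%, against 3.83% of all genes) and 2 higher (4.76%, against 2.65%), with a median of -0.26. Grn (chr11:102430315-102437048), progranulin, a secreted and lysosomal protein, was at 32.9, 0 and 8.66 CPM at 12 months, compared with 149, 113 and 97.6 CPM at 8 months (log2 change -2.77, SE 0.58, adjusted p = 0.0136). Atg9a, a lipid scramblase of the growing autophagosome, was at 51.8, 27 and 34.1 CPM against 130, 325 and 201 CPM (log2 change -2.47, SE 0.51, adjusted p = 0.0128). For both genes the ages did not overlap, and the call held with each library left out. Psap, Gaa and Man2b1, which encode a saposin precursor and lysosomal hydrolases, fell, with log2 changes of -1.25, -1.05 and -2.11. Npc2, which carries cholesterol out of the lysosome, rose by 0.90 from 110, 82.4 and 85.6 CPM to 146, 193 and 180 CPM, and Atg5 rose by 1.03. Those 5 calls were each lost without 1 library or more, for example 8-month replicate 2 for Psap (adjusted p = 0.104), Gaa (0.101) and Npc2 (0.111).

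Genes of defence and survival gave few calls, in both directions. Of 29 antioxidant genes, Mt3, a zinc-binding metallothionein, rose from 425, 345 and 389 CPM to 987, 751 and 629 CPM (log2 change 1.03, adjusted p = 0.0274, and 0.0807 without 12-month replicate 1 and 0.0878 without 8-month replicate 2). Keap1, the adaptor that marks NRF2 for degradation, fell from 63.3, 123.4 and 61.1 CPM to 30.2, 22.5 and 8.12 CPM (log2 change -2.03, SE 0.41, adjusted p = 0.0123). Each direction held 3.45% of the list, against 2.65% of all genes higher and 3.83% lower, and the median of the list was 0.33. Without 12-month replicate 2, 8 rose (27.6%, against 6.84% of all genes) and 1 fell. Among 32 cell death and senescence genes, 1 rose (3.12%, against 2.65% of all genes) and 2 fell (6.25%, against 3.83%). Sarm1, which cleaves NAD and drives axon degeneration, fell by 1.65 (adjusted p = 0.0274), while Nmnat2, which makes NAD and keeps axons alive, rose by 0.87 (adjusted p = 0.0470). Mcl1, an inhibitor of apoptosis, fell from 18.3, 35.4 and 31.6 CPM to 14.8, 4.50 and 7.58 CPM (log2 change -1.47, adjusted p = 0.0471), and missed the threshold without 12-month replicate 3 or 8-month replicate 2 or 3 (0.0711 to 0.129). Sarm1 was at 115, 139 and 102 CPM against 502, 444 and 164 CPM, and Nmnat2 at 173, 274 and 144 CPM against 109, 102 and 108 CPM. Sarm1 and Nmnat2 lost their calls without 4 and 5 of the libraries in turn, with adjusted p up to 0.0796 and 0.112. Cdkn2a, a marker of senescence, had 0.435, 0 and 0 CPM against 0, 0 and 3.44 CPM and did not pass (adjusted p = 0.532).

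Other lists held 2 calls or fewer in the fit with all libraries, where 2.65% of all genes rose and 3.83% fell. Heat shock proteins had Hsph1 higher (log2 change 0.98) and Hspa2 lower (-1.90) among 25 (4% each way). The stress and unfolded protein response had Edem1 and Xbp1 lower (-1.57 and -1.09) among 28 (7.14%). Of 36 interferon response and MHC class I genes, Tapbp and Mx2 fell (5.56%), by 1.01 and 1.99. DNA methylation enzymes and readers had 1 call among 22 (4.55%), the methyltransferase gene Dnmt3a, at 1.09, 8.99 and 8.66 CPM against 19.3, 23.2 and 25.3 CPM (log2 change -2.12, adjusted p = 0.0439, and 0.0869 without 8-month replicate 2). Of 18 circadian genes Cry2 fell (5.56%), by 1.0 (adjusted p = 0.0355). All 8 of these calls were lost without 8-month replicate 2, and each also without at least 1 other library (adjusted p 0.0506 to 0.116). For 23 glycolysis enzymes, and for 20 histone deacetylases and sirtuins, edgeR called 0, with medians of -0.52 and -0.20. The plot of list medians shows where intact and injured neurons, and intact neurons with and without 12-month replicate 2, lie apart. In all, 44 of 948 tested members of the 28 pathway lists rose and 57 fell, where 2.65% and 3.83% of all genes did. Without 12-month replicate 2, 163 of 970 rose and 94 fell, where 6.84% and 7.26% of all genes did. In that fit 6 of 25 heat shock proteins rose (24%) and 1 fell, and 1 of 22 DNA methylation genes rose and 5 fell. Stress response genes had 2 higher and 2 lower, and interferon genes had 1 higher and 3 lower. Circadian genes, glycolysis enzymes, and deacetylases and sirtuins had 0 higher and 2, 1 and 2 lower.

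**Figure D4:**
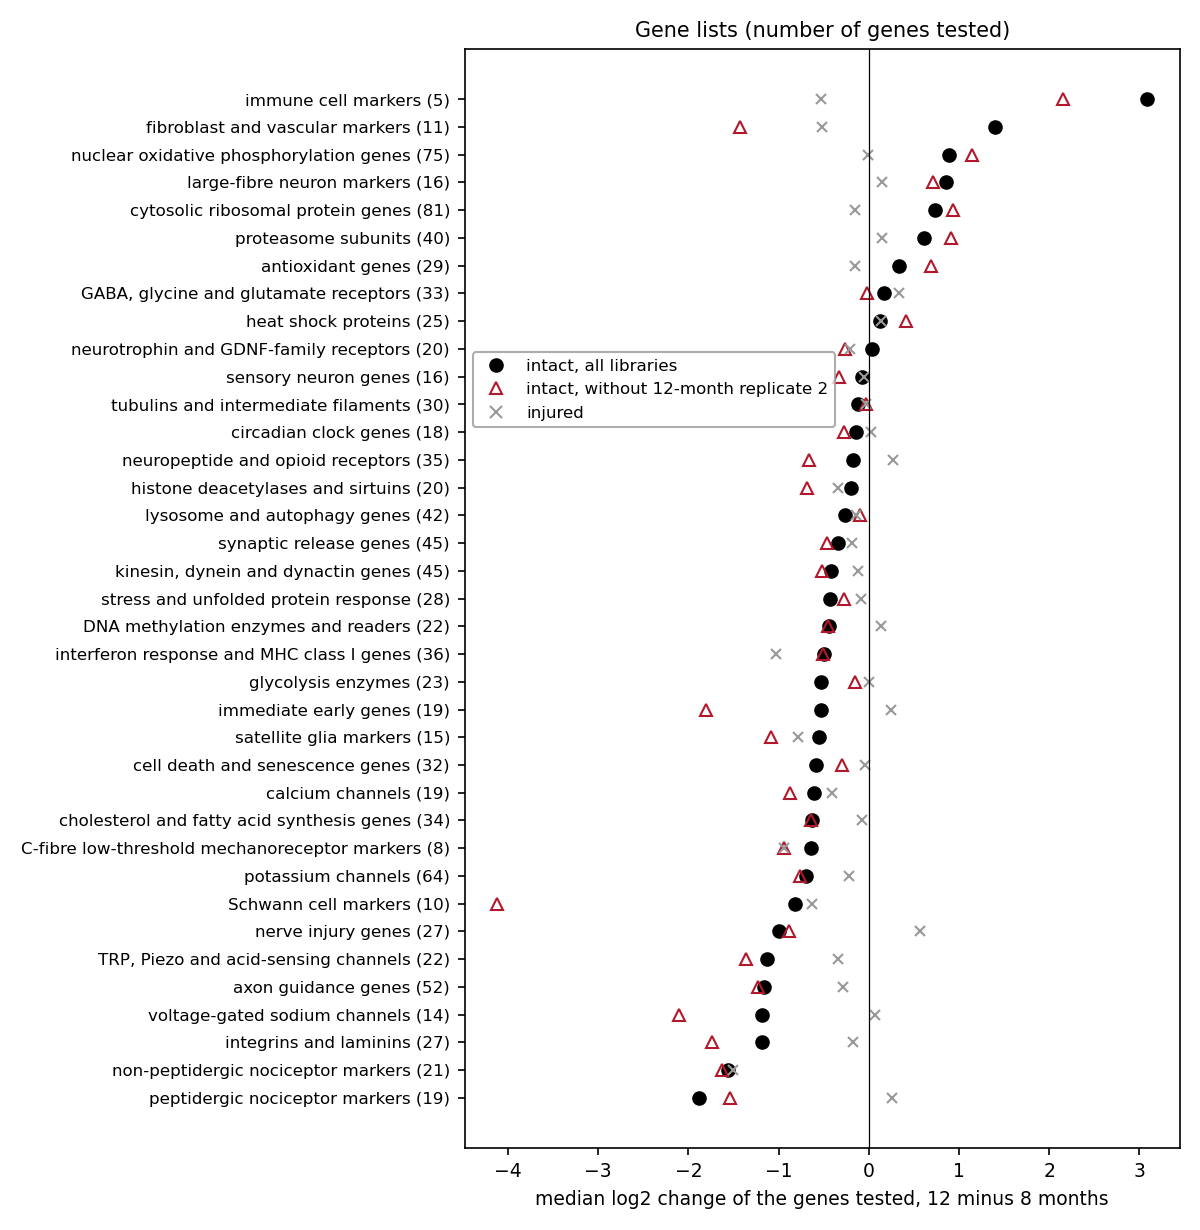
Median log2 change from 8 to 12 months over the tested genes of each list, for intact neurons with all libraries (black), intact neurons without 12-month replicate 2 (red triangles) and injured neurons (grey crosses), with TMM scaling. Oxidative phosphorylation genes have medians of 0.89, 1.15 and -0.01; with spike-in scaling, where the median of all genes is -2.12, each positive median except that of the immune markers is below 0.

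The same age contrast in injured neurons used 6 other libraries. There 3 genes passed by edgeR (0.022%; before adjustment 562 had a p below 0.05). DESeq2 called 48, against 2171 in intact neurons, and limma-voom with quality weights called 434, against 0. All 3 genes that passed by edgeR had also been called higher in intact neurons. Cd59a, an inhibitor of complement, had log2 changes of 2.05 in intact and 2.75 in injured neurons, from 35, 55 and 14.4 CPM to 133, 103 and 189 CPM in intact ones. The ribosomal pseudogene Rps6-ps4 rose by 5.89 in both, and the predicted gene Gm12918 by 5.34 and 5.96; counts of such copies are uncertain. Injured libraries had Y-linked counts at 8 months only and Xist counts at 12 months only, so age and sex cannot be told apart there either.

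Of the 361 genes that rose in intact neurons, 261 also had a positive change in injured neurons (72.3%), against 49.5% of all genes tested, and of the 523 that fell, 416 had a negative one (79.5%), against 50.5%. The changes in injured neurons were smaller, with medians of 0.33 and -0.32 against 2.28 and -2.03 in intact neurons, where the genes had been chosen. The age by condition interaction, which tests whether the age difference itself differs, called 0 genes by edgeR (0%). Before adjustment 1556 genes had a p below 0.05, and DESeq2 called 288 after it, limma-voom 1. For the lists, the medians in injured neurons were -0.01 for oxidative phosphorylation, -0.15 for ribosomal protein genes, 0.15 for the proteasome, -0.07 for cholesterol and fatty acid synthesis and 0.06 for sodium channels; these differences between conditions were not tested. Scn10a had means of 579 CPM at 12 months and 1022 CPM at 8 months in injured neurons, a log2 change of -0.82.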

How the data were processed

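RNA was measured in 18 low-input libraries, 3 each of injured and intact neurons at 1, 8 and 12 months, of which the 3 intact libraries at 12 and the 3 at 8 months are compared. The deposited table holds raw counts per gene; per the file headers, featureCounts 1.5.2 counted read pairs, without a strand option, over exons summed by gene name, on GENCODE vM16 (mm10) with ERCC spike-ins, and the deposited exon lengths in bp come from the same file. Reads were 150 bp pairs, per the labels' protocols, and the submitters' processing notes name Trim Galore and STAR.

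ERCC rows, CT010467.1 and genes off the autosomes were dropped, which left 49057 features. Low genes were removed with filterByExpr, libraries were scaled by TMM, and edgeR 4.0.16 in R 4.3.3 fitted its robust quasi-likelihood model to all 18 libraries with a mean per group, since 3 against 3 libraries hold few degrees of freedom. Tests are two-sided and p-values are adjusted by Benjamini-Hochberg over all genes tested, with a threshold of 0.05. CPM are counts relative to the TMM-scaled library size. A fold against a group at 0 uses a floor of 3 counts over the group, and a group with 1 to 3 counts gets a ratio with an exact 95% counting interval; both cover counting error only. Without strand, overlapping and antisense genes cannot be told apart. Script steps were tested on simulated counts.

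The comparison and the 37 gene lists (9 of markers, 28 of pathways) were chosen with earlier results of these data known. Genes named in the text are those called, also without 12-month replicate 2, with groups that do not overlap and a mean of at least 10 CPM, taking the 10 at each end and the 5 with the lowest adjusted p; of each list, up to 6 called members and its first 3 genes; and sex-linked genes as a check. Sema3b, Sema4d, Atg5, Man2b1, Lss, Sqle, Cox6a1, Apoe, Gap43, Cd59a, Scn1a and a few others were named after their values were seen, and some genes that the rule takes are not reported here. As a check of pairing, deviations from the group means of same-numbered libraries were correlated, which gave 0.047, 0.154 and 0.157, so the numbers were not taken as pairs. Alternatives changed the scaling, filter, tool, libraries fitted, chromosomes and covariates (limma 3.58.1, DESeq2 1.42.0), and each replicate was left out in turn. The 69 single-cell columns and the methylation samples were not used here.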

Additional observations from a re-analysis of the deposited data

Results flagged for a closer look

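Genes of the sex chromosomes, which the comparison leaves out, had counts in 1 age group only. Xist, expressed from the inactive X of females, had 10 and 15 counts in 12-month replicates 1 and 2 and 0 in replicate 3 and in every 8-month library. Uty, Kdm5d, Ddx3y and Eif2s3y, which lie on the Y chromosome, together had 253, 149 and 313 counts in the 8-month libraries and 0 in each 12-month library. Age and sex cannot be told apart in this comparison. Groups of 3 libraries are too small for a test of single libraries that stand apart.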

How the results depend on the processing

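With 13642 genes tested, the 884 calls were most changed by how the spread was estimated. The 6 libraries alone gave 0 calls (870 genes at an unadjusted p below 0.05, and all 754 of the called genes tested there kept their direction), the 9 intact libraries gave 3, and limma-voom with quality weights gave 0 (2267 at an unadjusted p below 0.05), against 845 for limma-voom and 2171 for DESeq2. No filter on low counts gave 1646, and the share of CT010467.1 as a covariate gave 1413. Leaving out 1 replicate gave 353 (8-month replicate 2) to 2022 (12-month replicate 2), with 1347 without 8-month replicate 3. An alternative chosen after seeing the data, the 6 libraries alone without 12-month replicate 2, gave 0, and another, with Lars2 dropped, gave 885. Other scalings, the stricter filter, CT010467.1 kept and all chromosomes gave 809 to 993. A replicate block gave 595 calls, and the pairing of replicate numbers rests on nothing but the numbers. Same-numbered libraries did not correlate best in every case.

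Members of the pathway lists called were 101 in all and 257 without 12-month replicate 2. The injured contrast had 3 calls, and 86 with no filter, 48 with DESeq2, 12 with limma-voom, 434 with quality weights, 7 with all chromosomes and 3 to 8 with 1 intact replicate left out. No injured library was left out, so the libraries of the injured contrast itself were not varied. The interaction had 0 calls, and 100 with spike-in scaling, 323 with no filter, 288 with DESeq2, 1 with limma-voom, 5 with the covariate and 1 to 78 with 1 intact replicate left out. The cause of these differences was not tested.

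Of 112 genes named with a test, 98 were called, and 42 of these kept their call with each of the 6 libraries left out. Over all alternatives, 2548 gene values were computed. Of these, 1822 kept their call or their lack of one, 690 kept the direction but missed the threshold, and 17 newly passed it. The 1822 include sign changes of genes called in neither fit, such as Nefh, from 2.34 to -0.11 without 12-month replicate 2. The other 19 changed sign and were called in the main fit or the alternative, each with spike-in scaling. These were Atg5 (-1.22), Atp5e (-0.72), Atp5k (-0.28), Cd59a (-0.56), Cox6a1 (-1.10), Dbi (-0.28), Fam57b (-0.013), Hsph1 (-1.47), Kcnh7 (-1.45), Mt3 (-0.92), Ndufa2 (-1.07), Ndufs6 (-0.64), Nmnat2 (-1.52), Npc2 (-1.34), Psma7 (-1.13), Psmd5 (-0.82), Rpl29 (-0.92), Rps14 (-0.80) and Uqcr11 (-0.40), as log2 changes beside a median of -2.12 for all genes.

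Depth limits what 12-month replicate 2 can show: with 449354 autosomal counts, of which 54.1% fell on Lars2, it detected 10392 genes against 12075 to 14643 in the other 5 libraries, and a value of 0 there covers levels that the other libraries would count.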
